A study of Mus musculus with 10 samples.

Results

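Glycosaminoglycan genes were followed in airway organoids from M3-CKO and Ctrl mice. The set holds 46 genes for the synthesis, sulfation and breakdown of chondroitin and heparan sulfate and for the core proteins that carry these chains. Members were taken from the deposited count table by gene symbol. Of the 46, 45 had a row among the 22457 of the table, and 43 had enough counts to be tested among 13528 tested genes. Csgalnact1 had no row, so it has no value here. Xylt1 and Chsy3 had a row but too few counts for a test. The set was put together because Chpf and Naglu had low p in the comparison of M3-CKO with Ctrl (ranks 5 and 7 of the 13528 p-values). The values of that comparison are therefore given below as a description of the members, and no count over them is read as evidence for the set.

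The organoids were grown in Matrigel from basal cells, the stem cells of the airway lining, isolated from mouse tracheas. The M3-CKO group comes from mice with a Mettl3 knockout, going by the series title, and Mettl3 encodes the enzyme that writes N6-methyladenosine on RNA. The Ctrl group comes from control mice whose alleles the labels used here do not give, nor do they give the Cre driver, the deleted exon, the age of the mice or a pooling of animals. RNA-seq was made from 3 M3-CKO and 3 Ctrl libraries on day 14. Both groups were cultured with EGF, cholera toxin, retinoic acid, serum, bovine pituitary extract and the receptor kinase inhibitors A83-01 and DMH-1, with the ROCK inhibitor Y-27632 for the first 3 days. The growth protocol also describes a differentiation medium, and whether these libraries come from organoids moved into it is not stated. The other 4 of the 10 libraries, from N6-methyladenosine immunoprecipitation, were not analysed here.

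Glycosaminoglycans are long sugar chains built in the Golgi on serines of core proteins. A short linker is made first, after which the chain becomes chondroitin sulfate if N-acetylgalactosamine is added and heparan sulfate if N-acetylglucosamine is added. Sulfotransferases and an epimerase then pattern the chain, which decides which growth factors, chemokines and matrix proteins it binds. In epithelia the chains sit largely on syndecans and glypicans at the cell surface. Old chains are taken apart in the lysosome from their outer end by enzymes that act in sequence, and loss of any one of several of them causes a mucopolysaccharidosis.

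Library totals ran from 8906375 to 10485922 counts, and 10 CPM (counts relative to library size, with TMM factors) stands for 87.6 to 103.6 counts. Mettl3 measured 11.1, 10.3 and 9.87 CPM in M3-CKO and 15.0, 17.0 and 18.9 CPM in Ctrl. The groups did not overlap, with a mean in M3-CKO at 61.4% of that in Ctrl, but the difference did not pass the test (adjusted p = 0.12, and without M3-CKO replicate 3 adjusted p = 0.043). An exact two-sided permutation test gave p = 0.1, the smallest that 3 against 3 libraries allow. M3-CKO replicate 3 stood apart: its log2 CPM correlated with M3-CKO replicates 1 and 2 at 0.919 and 0.908 across genes (which are not independent replicates), while those replicates correlated with each other at 0.985. With Ctrl replicates 1, 2 and 3, M3-CKO replicate 3 correlated at 0.922, 0.925 and 0.919, so it was no closer to its own group than to Ctrl. M3-CKO replicates 1 and 2 correlated with the Ctrl libraries at 0.924 to 0.934. Summed basal cell markers were 507 to 874 CPM in M3-CKO and 1765 to 2179 CPM in Ctrl, with 3 of 5 called lower (Krt5, Krt14 and Krt15). Club and secretory markers summed to 1359 to 4872 CPM in M3-CKO and 3003 to 3493 CPM in Ctrl. Scgb1a1 alone of 5 was called (higher). All 5 were higher in M3-CKO replicate 3 than in the mean of M3-CKO replicates 1 and 2 (median log2 difference 2.67), as were 4 of 5 basal markers. Multiciliated markers summed to 526 to 786 CPM in M3-CKO and 513 to 538 CPM in Ctrl, mostly Tubb4b. Foxj1 had 73.2, 58.7 and 28.8 CPM in M3-CKO and 11.6, 9.09 and 34.8 CPM in Ctrl (adjusted p = 0.17). Dnah5, Rsph1 and Cfap126 reached at most 5.21 CPM in any library. Basal keratin and secretory markers were thus detected in all libraries, as the epithelial label states. Of 8 mesenchymal markers, 4 had a row and summed to 1.45 to 3.46 CPM in M3-CKO and 3.38 to 12.4 CPM in Ctrl, mostly Pdgfra, and Col1a1 and Dcn stayed under 0.6 CPM in every library. Cartilage markers (5 of 7 with a row, Acan without one) stayed under 0.6 CPM in every library, and endothelial markers (2 of 5 with a row) under 0.3 CPM. Immune markers (4 of 7 with a row) summed to 38.6 to 100.0 CPM in M3-CKO and 63.3 to 91.3 CPM in Ctrl, mostly Cd68. Ptprc had 0 counts in every M3-CKO library and 0, 2 and 0 counts in Ctrl. In bulk samples such as these, fewer cells of a type and less RNA per cell cannot be told apart, and the part of the basal cell markers in the results below was not tested.

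Chpf, Csgalnact2 and Naglu were the 3 members called at an adjusted p under 0.05, all higher in M3-CKO, and 0 members were called lower. That is 6.98% of the 43 tested members, beside 2.91% of all tested genes called in either direction (1.74% higher and 1.16% lower). By an unadjusted p under 0.05, 16 members were higher and 3 lower, beside 20.5% of all tested genes (11.6% higher and 8.89% lower). The median log2 fold change was 0.14 over the members and 0.02 over all tested genes. DESeq2 called 9 members higher and 2 lower, beside 7.54% of its tested genes (4.57% higher and 2.97% lower). The same 3 members as with edgeR were called by limma-voom, beside 2.23% of all tested genes. Without M3-CKO replicate 3, 14 members were called higher and 4 lower, beside 25% of all tested genes (13.7% higher and 11.3% lower). Without Ctrl replicate 1, 2 or 3, 0 members were called, beside 0, 1 and 0 of all tested genes. Ids, with an adjusted p of 0.069, was the member nearest to a call among those not called. Chondroitin polymerisation had the highest median log2 fold change of the 8 roles, at 1.42 over 4 tested genes. That role holds Chpf and the lysosomal role holds Naglu, the genes for which the set was put together, so the ranking is a description only. The medians of the linker, chondroitin sulfation, lysosomal and core protein genes were 0.51, 0.62, 0.21 and 0.32, and those of heparan polymerisation, heparan modification and chain editing were 0.15, -0.07 and -0.22.

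**Figure D1:**
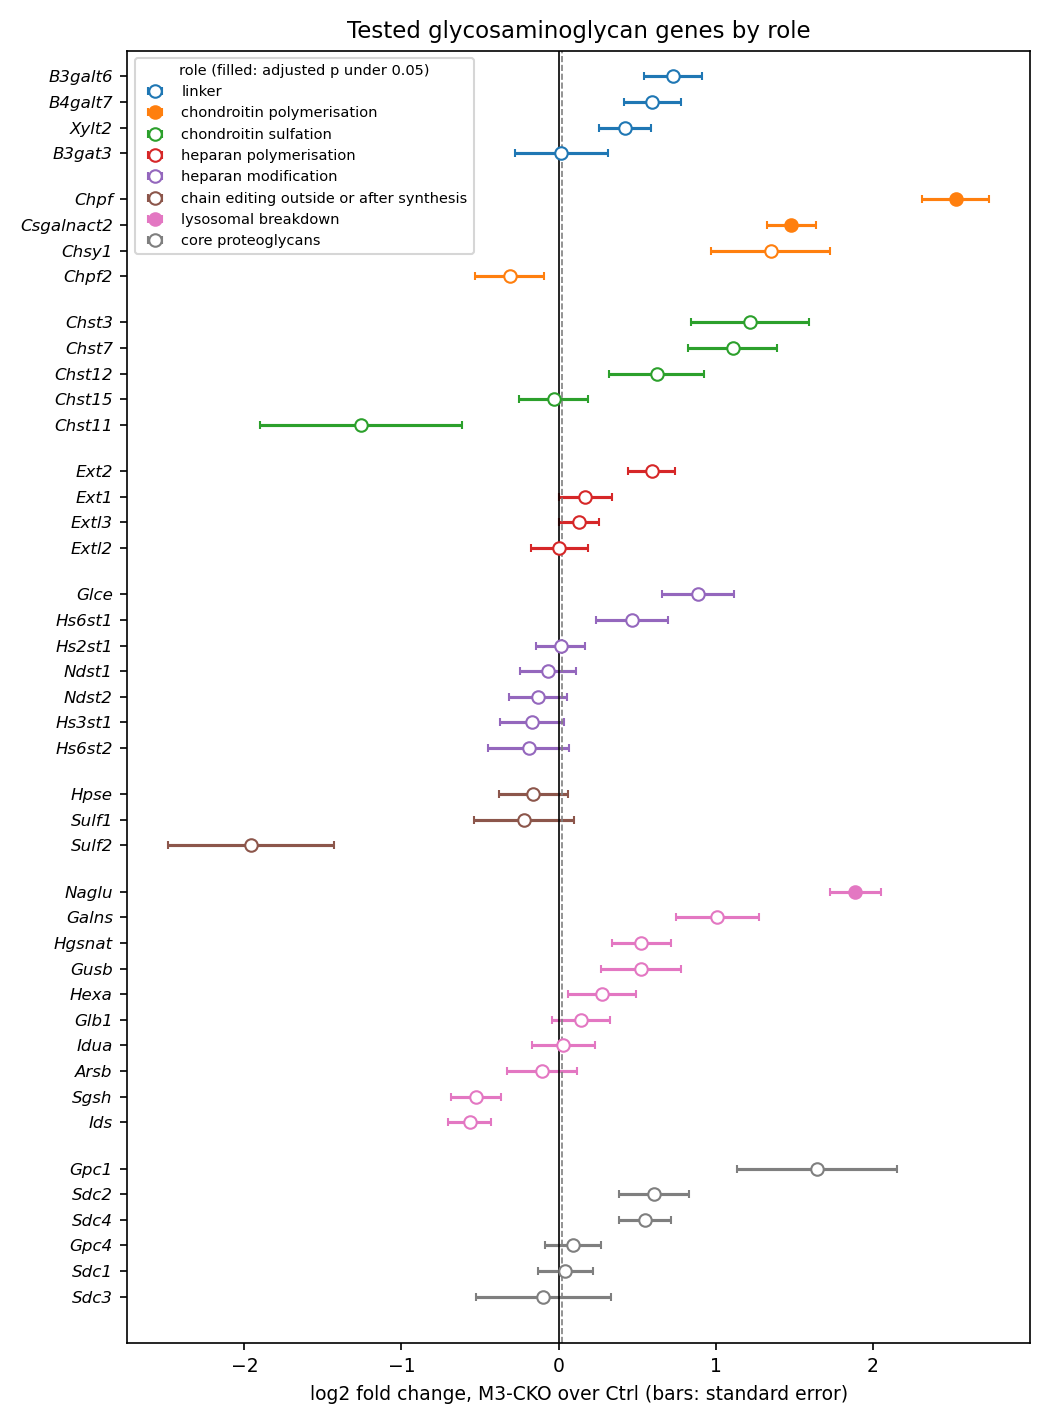
Log2 fold change, M3-CKO over Ctrl, with its standard error for the 43 tested members, grouped by role. Filled points mark the 3 genes with an adjusted p under 0.05 (Chpf, Csgalnact2 and Naglu), and the dashed line is the median of all tested genes (0.02).

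Chondroitin chains are started by the N-acetylgalactosamine transferases Csgalnact1 and Csgalnact2 and extended by complexes of Chsy1 or Chsy3 with Chpf or Chpf2. Chpf, the chondroitin polymerising factor, measured 252, 241 and 159.7 CPM in M3-CKO and 34.9, 40.8 and 37.5 CPM in Ctrl. Every M3-CKO library was far above every Ctrl library, with replicate 3 the lowest of its group. The means were 218 ± 50.5 CPM in M3-CKO and 37.8 ± 2.94 CPM in Ctrl (SD, n = 3 each), a 5.76-fold difference (log2 fold change 2.53, SE 0.21, adjusted p = 0.0068). Leaving out any of the libraries kept the log2 fold change between 2.41 and 2.70. The call itself was lost without Ctrl replicate 1, 2 or 3, when adjusted p was 0.071, 0.057 and 0.077.

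The promoter of Chpf is shown because this gene had the largest fold change among the tested members. The window is from RefSeq on build GRCm38.p6, minus strand, chr1:75479422-75479721, and runs from 250 bases before the annotated start to 50 after it. Capitals mark the cyclic AMP response element palindrome (CRE, TGACGTCA) and the GC box (GGGCGG, or its reverse complement).
Chpf promoter: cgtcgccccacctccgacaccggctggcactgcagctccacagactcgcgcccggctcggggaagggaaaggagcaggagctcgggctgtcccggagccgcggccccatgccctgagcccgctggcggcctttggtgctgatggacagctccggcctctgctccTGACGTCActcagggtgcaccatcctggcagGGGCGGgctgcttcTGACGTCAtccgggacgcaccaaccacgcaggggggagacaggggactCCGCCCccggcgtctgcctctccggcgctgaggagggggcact
The CRE palindrome occurs at 86 and 41 bases upstream of the start, and GC boxes at 55 bases upstream and 8 bases after it. The palindrome was added to the motifs after this window had been read. It was found in 2 of the 35 members with a window (5.71%; the other is Gusb, 4 bases upstream) and in 3.46% of the 10570 tested genes with one. A window with at least 2 of them occurred in 12 of those 10570 genes (0.114%). A letter match is a description and not a binding site.

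Csgalnact2, which adds the first N-acetylgalactosamine of the chain, measured 212, 233 and 219 CPM in M3-CKO and 68.1, 88.0 and 81.9 CPM in Ctrl. The groups were widely separate and M3-CKO replicate 3 lay between the other two. Means of 222 ± 10.9 CPM in M3-CKO and 79.3 ± 10.2 CPM in Ctrl (SD, n = 3 each) gave a 2.79-fold difference (log2 fold change 1.48, SE 0.15, adjusted p = 0.012). Adjusted p was 0.067 without M3-CKO replicate 1, 0.057 without M3-CKO replicate 2, and 0.072, 0.077 and 0.12 without Ctrl replicate 1, 2 and 3. With the replicate number as a block it was 0.066, so the call was lost there too, although the log2 fold change without 1 library stayed between 1.39 and 1.56. Its paralog Csgalnact1 has no row, so the other starter enzyme is not analysed here.

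The outer of the pair of annotated Csgalnact2 promoter windows is shown because it holds 4 GC boxes on the sense strand, in capitals, at 140, 118, 78 and 58 bases upstream of the start. It lies on the minus strand at chr6:118139091-118139390 (GRCm38.p6, RefSeq).
Csgalnact2 promoter: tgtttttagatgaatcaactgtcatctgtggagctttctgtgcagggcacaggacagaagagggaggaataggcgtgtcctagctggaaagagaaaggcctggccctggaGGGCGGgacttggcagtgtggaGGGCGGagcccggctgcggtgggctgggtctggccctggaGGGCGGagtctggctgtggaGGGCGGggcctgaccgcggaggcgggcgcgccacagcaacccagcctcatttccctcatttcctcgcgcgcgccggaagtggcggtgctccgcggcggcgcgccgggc
None of the letters searched, the E-box (CACGTG) included, occurs in the second window of Csgalnact2. A GC box was found in 74.3% of the 35 members with a window, beside 67.2% of the tested genes with one.

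Chsy1, the chondroitin synthase that carries both transferase activities, measured 32.4, 30.4 and 15.9 CPM in M3-CKO and 6.44, 14.1 and 10.3 CPM in Ctrl. The groups did not overlap, but M3-CKO replicate 3 was close to Ctrl replicate 2, and the difference did not pass (log2 fold change 1.35, SE 0.38, adjusted p = 0.099, and 0.012 with DESeq2). Chsy3, a second synthase, was near the detection limit, with 9, 14 and 6 counts in M3-CKO and 0, 0 and 4 counts in Ctrl. Chpf2, the paralog of Chpf, gave 53.0, 48.5 and 81.2 CPM in M3-CKO and 70.0, 73.1 and 83.7 CPM in Ctrl. Its groups overlapped through M3-CKO replicate 3 alone (log2 fold change -0.31, SE 0.22, adjusted p = 0.48), and without that library the value was -0.58 with an adjusted p of 0.018. Chpf2 overlaps Smarcd3 in the annotation and the strand setting of the counting is not given. Summed, the 5 chondroitin polymerisation genes with a row gave 527 ± 43.9 CPM in M3-CKO and 203 ± 20.4 CPM in Ctrl. Without Chpf and Csgalnact2 the sums were 88.1 ± 8.74 CPM in M3-CKO and 86.0 ± 9.06 CPM in Ctrl, a difference within the spread of replicates. The latter sum adds opposite differences of means. Chsy1 had 26.2 CPM in M3-CKO and 10.3 CPM in Ctrl, and Chpf2 had 60.9 CPM in M3-CKO and 75.6 CPM in Ctrl.

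Sulfotransferases place sulfate on the finished chondroitin chain: Chst3 and Chst7 at carbon 6 of N-acetylgalactosamine, Chst11 and Chst12 at carbon 4, and Chst15 adds a further sulfate at carbon 6 to units that already carry one at carbon 4. Of the 5, 0 passed edgeR's test and 2 were under an unadjusted p of 0.05, beside 20.5% of all tested genes. With DESeq2, beside 7.54% of its tested genes, 1 passed, Chst7. Chst3 gave 5.12, 7.87 and 10.2 CPM in M3-CKO and 2.40, 3.49 and 4.04 CPM in Ctrl (log2 fold change 1.22, SE 0.38, adjusted p = 0.13). Chst7 gave 40.8, 44.2 and 31.1 CPM in M3-CKO and 25.2, 13.0 and 15.6 CPM in Ctrl (log2 fold change 1.11, SE 0.29, adjusted p = 0.082). For both 6-O-sulfotransferases, every M3-CKO library lay above every Ctrl library, as in 13.7% of all tested genes. Chst7 overlaps Slc9a7 in the annotation. The 4-O-sulfotransferases pointed in opposite directions and their groups overlapped. Chst11 had 1.54, 2.97 and 0.610 CPM in M3-CKO and 4.59, 5.71 and 1.91 CPM in Ctrl (log2 fold change -1.26, SE 0.64, adjusted p = 0.32), resting on 6 to 54 counts a library. Chst12 had 24.7, 24.2 and 42.6 CPM in M3-CKO and 15.6, 25.8 and 18.0 CPM in Ctrl (log2 fold change 0.62, SE 0.30, adjusted p = 0.30). Chst15 had 94.2, 138 and 80.0 CPM in M3-CKO and 97.8, 102 and 119 CPM in Ctrl, and its groups overlapped (log2 fold change -0.03, SE 0.22, adjusted p = 0.95).

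**Figure D2:**
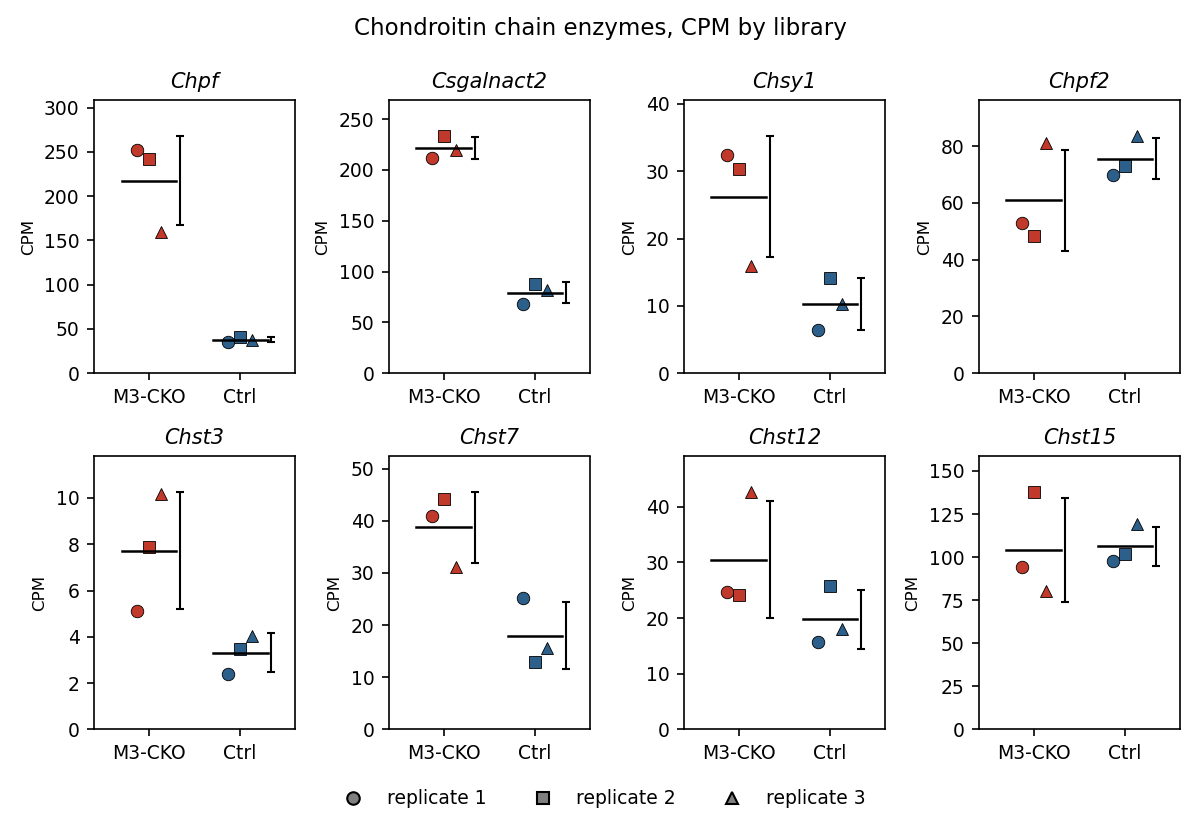
CPM in each library for 8 chondroitin chain enzymes, M3-CKO at left and Ctrl at right, with the group mean (line) and SD (bar). Chpf and Csgalnact2 show groups far apart, Chpf2 overlaps through M3-CKO replicate 3 (81.2 CPM), and Chst15 overlaps throughout.

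The linker that both chain types share is built by a xylosyltransferase (Xylt1 or Xylt2), the galactosyltransferases B4galt7 and B3galt6, and the glucuronosyltransferase B3gat3. Of the 4 tested linker genes 0 passed edgeR's test and 3 were under an unadjusted p of 0.05, beside 20.5% of all tested genes. With DESeq2, beside 7.54% of its tested genes, 1 passed, B3galt6. This gene measured 35.7, 30.1 and 35.7 CPM in M3-CKO and 22.6, 20.7 and 18.0 CPM in Ctrl (1.66-fold, log2 fold change 0.73, SE 0.18, adjusted p = 0.078). B4galt7 measured 27.7, 25.0 and 30.5 CPM in M3-CKO and 17.7, 19.7 and 17.6 CPM in Ctrl (log2 fold change 0.60, SE 0.18, adjusted p = 0.12). Xylt2, which adds the first sugar, measured 43.6, 40.4 and 42.7 CPM in M3-CKO and 36.0, 28.7 and 29.8 CPM in Ctrl (log2 fold change 0.42, SE 0.16, adjusted p = 0.20). In these first 3 steps the M3-CKO libraries lay above the Ctrl libraries without overlap, as they did in 13.7% of all tested genes. B3gat3, the last step, did overlap, with 52.6, 41.6 and 93.5 CPM in M3-CKO and 66.7, 53.4 and 65.4 CPM in Ctrl (log2 fold change 0.02, SE 0.30, adjusted p = 0.98). Xylt1 was barely detected, with 4, 2 and 0 counts in M3-CKO and 1, 0 and 0 counts in Ctrl.

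Heparan sulfate is polymerised by the Ext1 and Ext2 complex, with Extl3 adding the first N-acetylglucosamine and Extl2 able to end the chain early. Ext2 measured 141, 131 and 108 CPM in M3-CKO and 86.3, 82.7 and 83.3 CPM in Ctrl. The groups did not overlap and differed 1.51-fold, without passing the test (log2 fold change 0.59, SE 0.15, adjusted p = 0.081). Ext1, its partner, overlapped between groups with 132, 163 and 142 CPM in M3-CKO and 130.4, 148 and 109 CPM in Ctrl (log2 fold change 0.17, SE 0.17, adjusted p = 0.62). Extl3 lay in a narrow range, at 130.2 to 132 CPM in M3-CKO and 114 to 124 CPM in Ctrl (log2 fold change 0.13, adjusted p = 0.62). Extl2 overlapped, with an adjusted p of 0.99.

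Chain modification begins with the N-deacetylase/N-sulfotransferases Ndst1 and Ndst2, goes on with the epimerase Glce, which turns glucuronic into iduronic acid, and ends with the 2-O, 6-O and 3-O sulfotransferases. Glce had 110.3, 117 and 70.6 CPM in M3-CKO and 52.2, 62.9 and 45.8 CPM in Ctrl. Its groups did not overlap, with M3-CKO replicate 3 nearest to Ctrl. The means differed 1.85-fold (log2 fold change 0.89, SE 0.23, adjusted p = 0.082, and 0.022 with DESeq2). Hs6st1, a 6-O-sulfotransferase, had 659, 699.8 and 405 CPM in M3-CKO and 455, 383 and 440.2 CPM in Ctrl. M3-CKO replicates 1 and 2 were above every Ctrl library, and replicate 3 fell inside the Ctrl range (adjusted p = 0.31). The other 5 genes, Ndst1, Ndst2, Hs2st1, Hs6st2 and Hs3st1, had log2 fold changes of -0.19 to 0.01, and their groups overlapped.

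After synthesis the chain can still be edited outside the cell by the sulfatases Sulf1 and Sulf2, which remove 6-O-sulfate from heparan sulfate, and cut by the heparanase Hpse. Sulf2 measured 44.5, 35.3 and 13.2 CPM in M3-CKO and 192, 61.6 and 107 CPM in Ctrl. Every M3-CKO library lay below every Ctrl library, but both groups were widely spread. Means of 31.0 ± 16.1 CPM in M3-CKO and 120.4 ± 66.4 CPM in Ctrl (SD, n = 3 each) differed by -1.96 on the log2 scale (SE 0.53, adjusted p = 0.091). The call depended on the fit: DESeq2 gave an adjusted p of 0.0010, edgeR with no filter on low counts 0.023, and edgeR without M3-CKO replicate 3 gave 0.027 with a log2 fold change of -1.60. Basal markers differed between the same libraries, as given above, and their part in the Sulf2 values was not tested. Sulf1 overlapped, with 5.99, 8.33 and 11.8 CPM in M3-CKO and 11.9, 8.35 and 10.1 CPM in Ctrl (log2 fold change -0.22, SE 0.32, adjusted p = 0.75). Hpse also overlapped, at 44.8 to 78.4 CPM in M3-CKO and 64.8 to 76.2 CPM in Ctrl (log2 fold change -0.16, adjusted p = 0.74).

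Breakdown of heparan sulfate in the lysosome needs Ids and Idua for iduronate, Sgsh to remove N-sulfate, Hgsnat to acetylate the freed glucosamine and Naglu to cut it off. Naglu, alpha-N-acetylglucosaminidase, whose loss causes Sanfilippo syndrome type B, measured 288, 259 and 219.7 CPM in M3-CKO and 75.6, 65.5 and 65.8 CPM in Ctrl. The lowest M3-CKO library was well above the highest Ctrl library. Means of 256 ± 34.3 CPM in M3-CKO and 69.0 ± 5.70 CPM in Ctrl (SD, n = 3 each) gave a 3.71-fold difference (log2 fold change 1.89, SE 0.16, adjusted p = 0.0068). The log2 fold change stayed between 1.80 and 1.98 with any 1 library left out. Adjusted p was 0.059, 0.063 and 0.084 without Ctrl replicate 1, 2 and 3, so the call was lost in those fits.

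The other heparan sulfate breakdown enzymes had smaller differences in both directions. Hgsnat gave 43.7, 43.5 and 59.5 CPM in M3-CKO and 38.0, 32.0 and 31.8 CPM in Ctrl (log2 fold change 0.53, SE 0.19, adjusted p = 0.17). Ids gave 114, 107 and 114 CPM in M3-CKO and 151, 176 and 169 CPM in Ctrl (0.675-fold, log2 fold change -0.57, SE 0.14, adjusted p = 0.069). Sgsh gave 27.2, 25.8 and 30.8 CPM in M3-CKO and 39.1, 39.2 and 42.3 CPM in Ctrl (0.695-fold, log2 fold change -0.52, SE 0.16, adjusted p = 0.12). Ids and Sgsh, a sulfatase each, were thus below Ctrl in every M3-CKO library while Hgsnat and Naglu were above it, and of these 4 genes edgeR called Naglu alone. DESeq2 also called Ids (adjusted p = 0.044). Sgsh overlaps Card14 and Slc26a11 in the annotation. Idua overlapped between the groups, at 14.4 to 17.4 CPM in M3-CKO and 15.0 to 17.3 CPM in Ctrl, and it overlaps Dgkq and Slc26a1 in the annotation.

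The windows of Naglu and Sgsh, enzymes of the same pathway, are shown as examples, and each holds 1 E-box (CACGTG). The E-box is the core of the element that TFEB, a regulator of lysosomal genes, is known to bind. Naglu was called higher and Sgsh was not called, and a part of TFEB in either was not tested. Capitals mark the E-box and the GC box (GGGCGG). Naglu is on the plus strand at chr11:101069844-101070143 and Sgsh on the minus strand at chr11:119355461-119355760 (GRCm38.p6, RefSeq).
Naglu promoter: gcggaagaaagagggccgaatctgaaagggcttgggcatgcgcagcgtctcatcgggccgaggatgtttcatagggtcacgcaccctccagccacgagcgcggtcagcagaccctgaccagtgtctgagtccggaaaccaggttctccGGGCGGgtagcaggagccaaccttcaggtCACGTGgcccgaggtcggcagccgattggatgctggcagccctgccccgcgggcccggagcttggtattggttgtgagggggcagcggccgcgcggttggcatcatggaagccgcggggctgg
Sgsh promoter: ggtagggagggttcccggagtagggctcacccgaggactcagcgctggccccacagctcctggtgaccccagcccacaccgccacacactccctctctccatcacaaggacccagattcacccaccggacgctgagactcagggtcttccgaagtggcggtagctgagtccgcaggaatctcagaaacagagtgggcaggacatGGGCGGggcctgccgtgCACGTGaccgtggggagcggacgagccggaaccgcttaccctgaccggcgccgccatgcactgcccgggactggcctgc
The E-box lies 73 bases upstream of the start in Naglu and 29 bases upstream in Sgsh, and Glb1 has one at 48 bases. Of the 8 lysosomal members with a window, 3 hold it, and 6 of all 35 members with a window do (17.1%), beside 11.5% of the tested genes with one. The longer palindrome TCACGTGA, which contains the E-box, was found in 1 member, Extl2, and in 2.13% of the tested genes with a window.

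The enzymes that act on chondroitin or keratan sulfate, or on sugars common to several chains, did not pass edgeR's test. Galns, which removes 6-O-sulfate from galactose and N-acetylgalactosamine, had 21.3, 27.5 and 15.7 CPM in M3-CKO and 10.6, 9.52 and 11.9 CPM in Ctrl. Its groups were apart (2.01-fold, log2 fold change 1.01, SE 0.26, adjusted p = 0.085), DESeq2 called it, and it overlaps Trappc2l in the annotation. Gusb, beta-glucuronidase, had 118, 115 and 216 CPM in M3-CKO and 107, 105 and 101 CPM in Ctrl (log2 fold change 0.52, SE 0.25, adjusted p = 0.30). For Gusb, M3-CKO replicate 3 stood far above all the other libraries, and M3-CKO replicates 1 and 2 were just above Ctrl. Arsb, which removes 4-O-sulfate, had 135, 134 and 77.5 CPM in M3-CKO and 126, 130.1 and 116 CPM in Ctrl, so replicate 3 was low here. The beta-hexosaminidase subunit gene Hexa and the beta-galactosidase gene Glb1 overlapped between groups, with log2 fold changes of 0.28 (SE 0.22) and 0.14 (SE 0.19). In the annotation Hexa overlaps Tmem202, and Glb1 overlaps Tmppe. Summed, the 10 lysosomal genes gave 861 ± 29.4 CPM in M3-CKO and 663 ± 3.79 CPM in Ctrl, and without Naglu 606 ± 52.3 CPM in M3-CKO and 594 ± 4.37 CPM in Ctrl. The sum without Naglu adds Ids and Sgsh, lower in every M3-CKO library, to Hgsnat, Galns and Gusb, higher in every one.

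**Figure D3:**
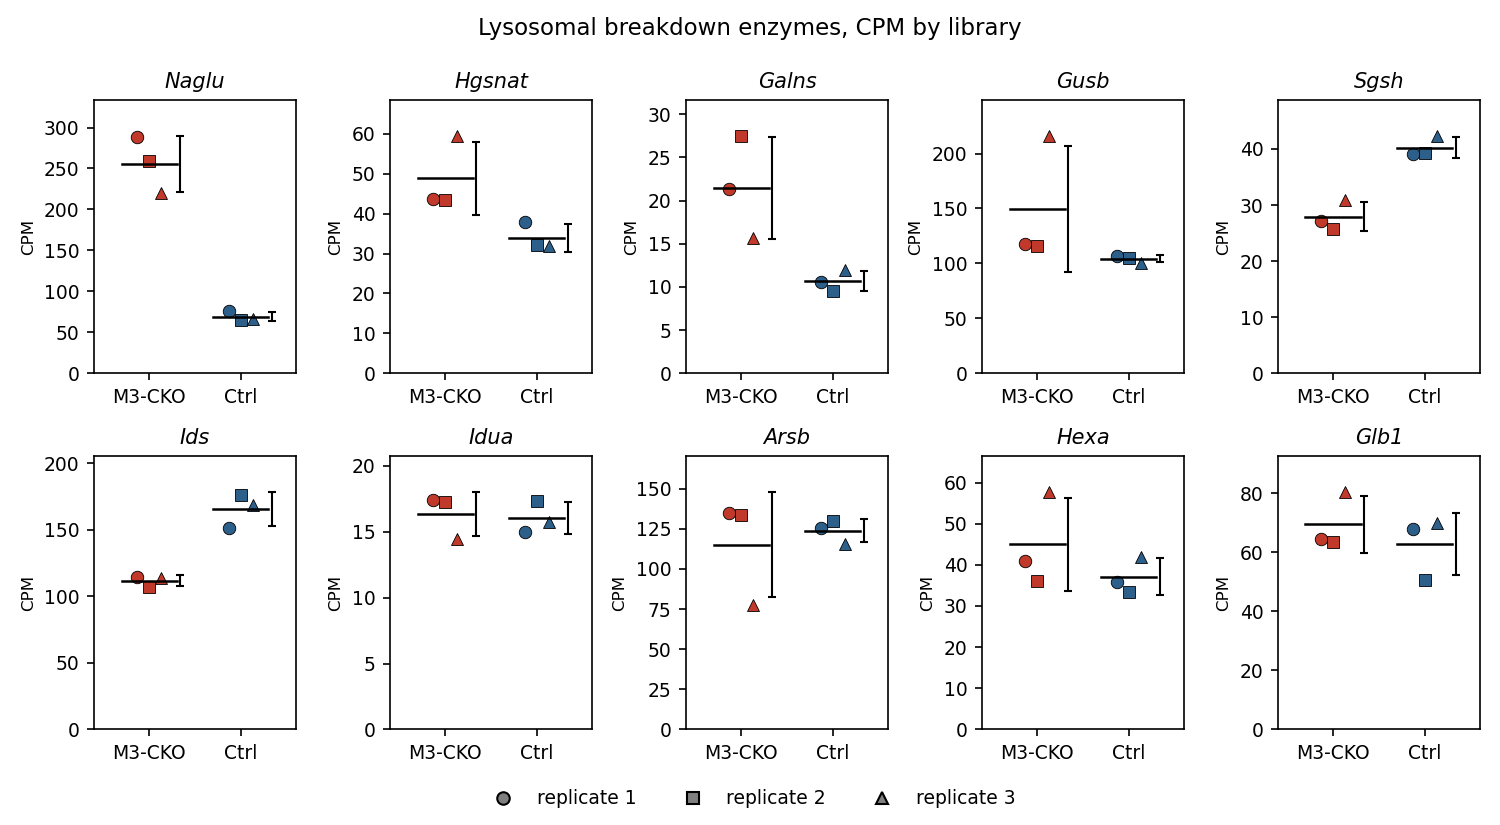
CPM in each library for the 10 lysosomal members, M3-CKO at left and Ctrl at right, with the group mean (line) and SD (bar). Naglu stands at 219.7 to 288 CPM in M3-CKO and 65.5 to 75.6 CPM in Ctrl, Ids and Sgsh are lower in every M3-CKO library, and Gusb is highest in M3-CKO replicate 3 (216 CPM).

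Core proteins carry the chains: syndecans cross the membrane, and glypicans are held to it by a lipid anchor. Of the 6, 0 passed edgeR's test and 3 were under an unadjusted p of 0.05, beside 20.5% of all tested genes. With DESeq2, beside 7.54% of its tested genes, 1 passed, Gpc1. Sdc1, the main syndecan of epithelia, had 1716, 1851 and 1949 CPM in M3-CKO and 1995, 1834 and 1524 CPM in Ctrl, and its groups overlapped (log2 fold change 0.04, SE 0.18, adjusted p = 0.92). Sdc4 had 884, 815 and 932 CPM in M3-CKO and 686, 559 and 550.5 CPM in Ctrl. Its groups did not overlap and their means differed 1.46-fold (log2 fold change 0.55, SE 0.16, adjusted p = 0.12). Sdc2 had 50.1, 52.4 and 32.1 CPM in M3-CKO and 32.4, 27.6 and 28.4 CPM in Ctrl (log2 fold change 0.61, SE 0.22, adjusted p = 0.18).

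Gpc1, a glypican, measured 48.3, 52.3 and 11.9 CPM in M3-CKO and 15.0, 10.3 and 10.7 CPM in Ctrl. M3-CKO replicates 1 and 2 were above every Ctrl library, and replicate 3 was inside the Ctrl range. Means of 37.5 ± 22.2 CPM in M3-CKO and 12.0 ± 2.60 CPM in Ctrl (SD, n = 3 each) differed by 1.65 on the log2 scale (SE 0.51, adjusted p = 0.13). Without M3-CKO replicate 3 the value was 2.07 with an adjusted p of 5.6e-04, and DESeq2 on all libraries gave an adjusted p of 0.011. Gpc1 overlaps Ankmy1 in the annotation. Sdc3 overlapped, with 219, 309 and 80.0 CPM in M3-CKO and 247, 170.3 and 233 CPM in Ctrl, and its log2 fold change of -0.10 was 0.28 without M3-CKO replicate 3 and -0.52 without M3-CKO replicate 2. Gpc4 overlapped, at 103 to 122 CPM in M3-CKO and 87.6 to 126 CPM in Ctrl.

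**Figure D4:**
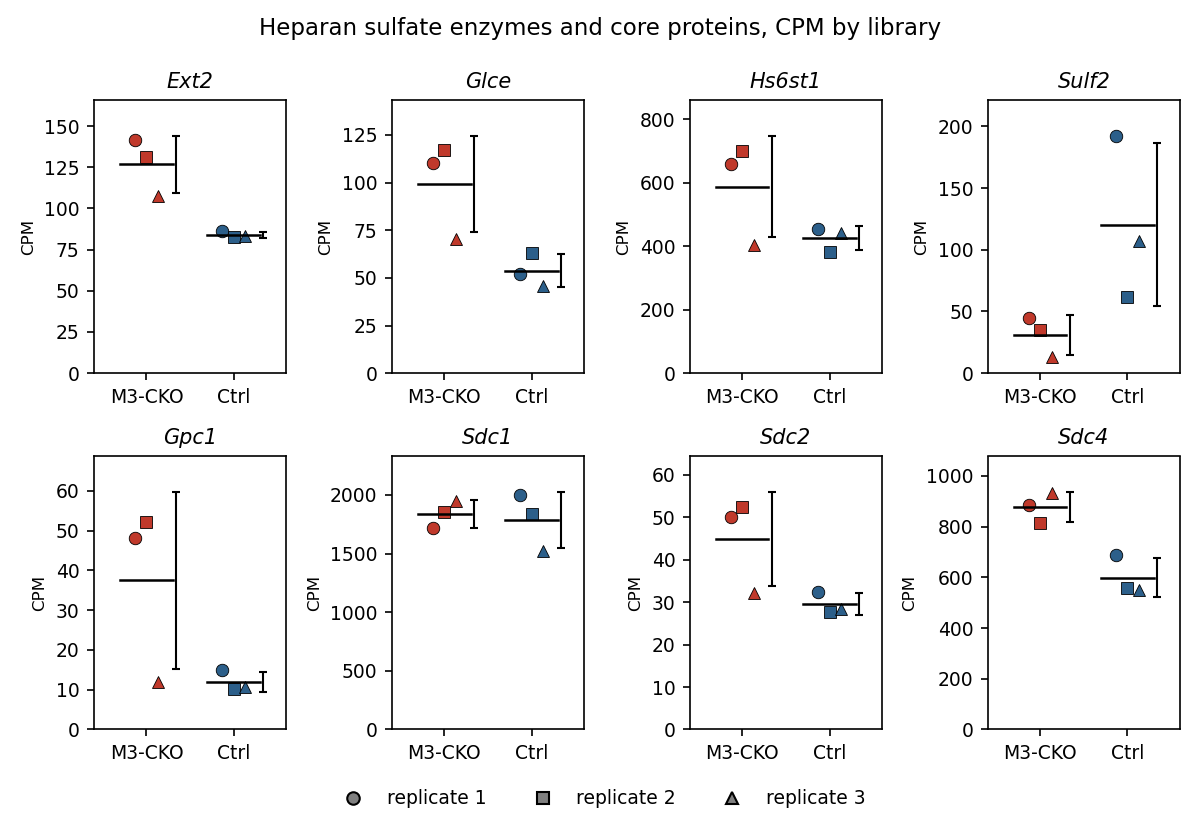
CPM in each library for 4 genes of heparan sulfate synthesis and editing and 4 core proteins, M3-CKO at left and Ctrl at right, with the group mean (line) and SD (bar). Ext2, Glce and Sdc4 are higher and Sulf2 is lower in every M3-CKO library, none of them past edgeR's test (DESeq2 called Glce and Sulf2), and M3-CKO replicate 3 falls inside the Ctrl range for Gpc1 (11.9 CPM), Sdc2 (32.1 CPM) and Hs6st1 (405 CPM).

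Across the set, replicate spread was larger in M3-CKO. The median coefficient of variation of the 43 members was 23.0% in M3-CKO and 11.9% in Ctrl, beside 24.2% in M3-CKO and 15.2% in Ctrl over all tested genes. M3-CKO replicate 3 lay above the mean of replicates 1 and 2 for 20 members and below it for 23, so it did not shift the set one way. Groups did not overlap for 16 members higher and 3 lower in M3-CKO (44.2% of 43), beside 27.1% of all tested genes (13.7% higher and 13.5% lower). The 3 lower ones were Sulf2, Ids and Sgsh.

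**Figure D5:**
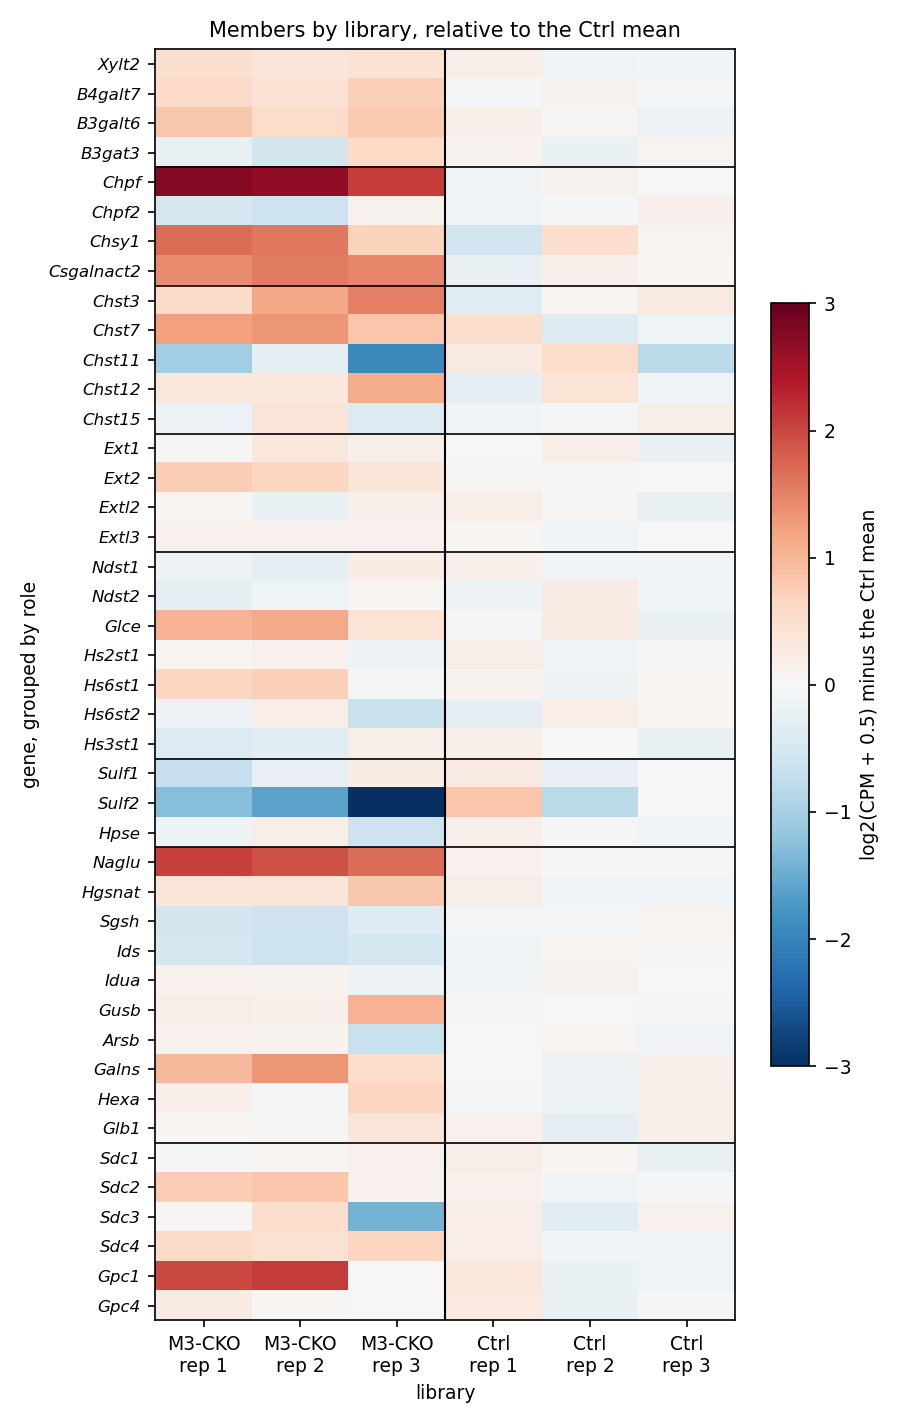
Log2(CPM + 0.5) of each tested member in each library minus its Ctrl mean, with M3-CKO libraries at left and Ctrl at right, grouped by role. Chpf, Csgalnact2 and Naglu are high in all 3 M3-CKO libraries, Gpc1 in replicates 1 and 2 alone, and Sulf2 is lowest in M3-CKO replicate 3.

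Other genes of the same pathways, which are no members, were read in the same fit. Of the 12 genes that supply sugar nucleotides and sulfate, all tested, 0 were called at adjusted p under 0.05, while 3 were higher and 2 lower at an unadjusted p under 0.05, and DESeq2 called Ugp2 and Papss2, both lower. Ugp2, which makes UDP-glucose and had the lowest p, measured 95.4, 91.3 and 130.0 CPM in M3-CKO and 178, 157 and 177 CPM in Ctrl (log2 fold change -0.69, SE 0.18, adjusted p = 0.081). Of 4 tested genes among 5 other chondroitin and dermatan sulfate enzymes, 1 was called. Dse, the epimerase that turns chondroitin into dermatan sulfate, rose to 134, 143 and 111 CPM in M3-CKO, against 54.2, 60.3 and 46.7 CPM in Ctrl (2.40-fold, log2 fold change 1.27, SE 0.17, adjusted p = 0.022). Among 11 other heparan sulfate enzymes 7 had a row and 1 could be tested. This was Hs3st3b1, a 3-O-sulfotransferase, with 97.5, 100.0 and 128 CPM in M3-CKO and 48.6, 46.6 and 71.9 CPM in Ctrl (log2 fold change 0.96, SE 0.22, adjusted p = 0.062, and 0.0061 with DESeq2).

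Hyaluronan is the chain that is made at the plasma membrane, without sulfate or core protein. Of 7 tested among its 9 genes, Hyal2, a membrane-anchored hyaluronidase, was the 1 called, and rose to 82.0, 82.5 and 81.7 CPM in M3-CKO, against 37.3, 40.3 and 30.4 CPM in Ctrl (2.28-fold, log2 fold change 1.19, SE 0.16, adjusted p = 0.022). Of 13 tested among 14 other lysosomal glycan hydrolases and activators, Neu1, a sialidase, was the 1 called. Neu1 rose to 324, 291 and 355 CPM in M3-CKO, against 159, 106 and 131 CPM in Ctrl (2.45-fold, log2 fold change 1.29, SE 0.19, adjusted p = 0.027). Of 11 tested among 19 other core proteins, 1 was called. Vcan, the large chondroitin sulfate proteoglycan versican, rose to 5.02, 6.96 and 2.64 CPM in M3-CKO, against 0.655, 0.529 and 0.449 CPM in Ctrl (log2 fold change 3.13, SE 0.52, adjusted p = 0.032). Its Ctrl values rest on 4 to 6 counts a library, and limma-voom gave an adjusted p of 0.060. All of Dse, Hyal2, Neu1 and Vcan were above the Ctrl range in every M3-CKO library. Each lost its call in the fits without 1 library other than M3-CKO replicate 3, where adjusted p ran up to 0.14 for Dse, 0.14 for Hyal2, 0.15 for Neu1 and 0.17 for Vcan, and with the replicate number as a block (0.069, 0.072, 0.070 and 0.082). Among 9 tested lysosome biogenesis and membrane genes 0 were called, 3 were higher and 0 lower at an unadjusted p under 0.05, DESeq2 called Cd63 and limma-voom called 0. Cd63 had 49.3, 42.3 and 68.6 CPM in M3-CKO and 25.6, 25.2 and 31.9 CPM in Ctrl (log2 fold change 0.96, SE 0.22, adjusted p = 0.066). In these 7 lists edgeR called Dse, Hyal2, Neu1 and Vcan higher and 0 genes lower, with 4 lower at an unadjusted p under 0.05. Higher at that unadjusted threshold, in the order of the lists above, were 3 of 12, 2 of 4, 1 of 1, 3 of 7, 4 of 13, 4 of 11 and 3 of 9 tested genes. Of all tested genes, 1.74% were called higher and 1.16% lower. At an unadjusted p under 0.05, 11.6% of all tested genes were higher and 8.89% lower. Among the genes reported here, DESeq2 also called Chst14, Cd44 and Cspg4 higher, and Ugp2, Papss2 and Spock1 lower, and limma-voom called Spock1 lower.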

How the data were processed

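The deposited table holds counts of reads per gene, not normalized by the authors. The submitters' processing notes list Trim Galore, HISAT2, featureCounts and build mm39. For their versions, the annotation, the strand setting and multiply mapped reads, nothing is stated in the sources used here. Reads of overlapping genes and paralogs could therefore have been shared or dropped.

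Counts were tested across the whole table with edgeR 4.0.16 in R 4.3.3 (filterByExpr, TMM, quasi-likelihood test, M3-CKO against Ctrl, two-sided, without covariates). The call was an adjusted p under 0.05 (Benjamini-Hochberg over 13528 tested genes), and adjusted p-values are edgeR's except where DESeq2 or limma-voom is named. CPM uses TMM-scaled library sizes. Total counts of 8906375 to 10485922 per library set the precision. Nothing in the labels ties replicates to separate animals or cultures. The p-values then describe only the spread among these libraries, possibly a technical one. The fit was tested on simulated data. Members and lists were chosen with earlier results of these data known.

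All 46 members could be named. CPM in every library is given for Chpf, Naglu, members with an unadjusted p under 0.05 or an absolute log2 fold change of at least 1, and the member with the highest mean of each role. In the other pathway lists, called genes are named (at most 4 a list) or, with none called, the gene with the lowest p. Some further members are given in full. A gene of the other pathway lists is not reported here. No usable transcript lengths were at hand, so levels were not compared between genes. Promoter letters and gene overlaps come from RefSeq tables on GRCm38.p6, a build other than that of the counts, and were matched by symbol. Alternatives were DESeq2 1.42.0, limma-voom (limma 3.58.1), RLE scaling, library size alone, no filter, a filter of 1 CPM in 3 libraries, a block for replicate number, and omission of each library in turn.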

Additional observations from a re-analysis of the deposited data

How the results depend on the processing

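The log2 fold changes of Chpf, Csgalnact2 and Naglu kept their direction in all 13 alternatives, while their calls did not. Members called, 3 in the fit reported, were 11 with DESeq2 (with 1200 genes called in all, against 393), 7 with no filter (740 genes) and 2 with the replicate number as a block (20 genes). Leaving out 1 library gave 0 to 18 members and 0 to 3483 genes. The 18 members (14 higher and 4 lower) came without M3-CKO replicate 3, when 3483 genes were called. Without any 1 Ctrl library 0 members were called, and 0, 1 and 0 genes in all, with 2378, 2044 and 1963 genes at an unadjusted p under 0.05. The cause was not tested. The labels do not say whether same-numbered libraries are paired. Deviations from the group means of same-numbered libraries correlated at -0.03, 0.02 and -0.10, and those of differently numbered libraries at -0.08 to 0.11. With 3 libraries a group, these values cannot decide whether the libraries are paired.

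The member median of 0.14 was 0.091 to 0.22 without 1 library, and the Mettl3 log2 fold change of -0.70 was -0.78 to -0.62. Of 559 recomputed member values, 493 kept direction and side of the threshold, 27 passed it, 12 no longer passed and 27 changed sign. Those that changed sign had reported values of -0.19 to 0.09. B3gat3 was -0.057 with limma-voom and -0.061 with the block. Without 1 library the ranges were B3gat3 -0.39 to 0.25, Extl2 -0.10 to 0.11, Hs2st1 -0.057 to 0.12, Idua -0.015 to 0.11, Chst15 -0.27 to 0.12, Ndst1 -0.23 to 0.045, Ndst2 -0.23 to 0.00041, Hs6st2 -0.40 to 0.0012, Sdc1 -0.064 to 0.13, Sdc3 -0.52 to 0.28, Gpc4 -0.019 to 0.26, Hpse -0.35 to 0.022 and Arsb -0.23 to 0.11. Xylt1 and Chsy3 had too few counts for a test, and Chst11 and Vcan rest on few counts.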

Other observations

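The genes named here, core proteins that are no members, were chosen after their values were seen. Of the 11 other core proteins tested, 10 were lower in M3-CKO replicate 3 than in the mean of M3-CKO replicates 1 and 2, with a median log2 difference of -0.81 beside 0.013 over all tested genes. Of all 13528 tested genes, 6667 were lower by this measure. So were 6 of 7 hyaluronan genes (median -0.79) and 4 of 4 other chondroitin and dermatan sulfate enzymes (-0.67). All 4 tested linker genes were higher, as were 8 of 13 other lysosomal hydrolases and activators. Hspg2, the basement membrane proteoglycan perlecan, had 37.9, 35.0 and 1.83 CPM in M3-CKO and 8.95, 6.03 and 6.18 CPM in Ctrl. Col18a1, a basement membrane collagen that carries heparan sulfate, had 91.3, 90.7 and 12.2 CPM in M3-CKO and 76.8, 46.3 and 43.8 CPM in Ctrl. For both, M3-CKO replicate 3 was below every other library. Agrn, the heparan sulfate proteoglycan agrin, had 718, 751 and 418 CPM in M3-CKO and 467, 569 and 466 CPM in Ctrl. Gpc6, a glypican, had 141, 168 and 49.0 CPM in M3-CKO and 150.0, 53.6 and 95.4 CPM in Ctrl. None of these 4 genes passed the test between the groups.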
